A study of Homo sapiens with 24 samples.

Results

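The genes described here are the chemokines CXCL14 and CXCL12 and the receptors of CXCL12, CXCR4 and ACKR3. They are 4 of the 62757 genes in the deposited table, each with 1 row, and were followed through all 24 libraries. The cells were cardiac cultures made from HES3, an established human embryonic stem cell line. In all groups the line carried 2 reporters, GFP at NKX2-5 and mCherry at NR2F2, and CRISPR-Cas9 had been aimed at 1 gene. The targets were LHX2 (a LIM-homeodomain transcription factor), ZNF503 and ZNF711 (zinc finger proteins), or TRAC (the T cell receptor alpha constant gene), which was the control. Embryoid bodies, which are floating cell aggregates, were then directed to heart fates with Wnt-modulating protocols for at most 14 days. The groups labelled AM, read here as the atrial protocol, received retinoic acid on day 4, and the groups labelled VM, read as the ventricular protocol, did not. Target and protocol gave 8 groups of 3 libraries: AM TRAC, AM LHX2, AM ZNF503, AM ZNF711, VM TRAC, VM LHX2, VM ZNF503 and VM ZNF711. The labels do not say whether a target's cells were a clone or a pool, nor whether the 3 libraries of a group came from separate cultures. P-values therefore measure only the spread between these libraries, which may be technical.

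CXCL12 is secreted by mesenchymal and other stromal cells and binds CXCR4, a receptor that signals through inhibitory G proteins and guides migrating cells. ACKR3 is an atypical receptor that takes up CXCL12 and clears it without coupling to G proteins. In the developing heart this ligand and its receptors are known for roles in coronary vessel, outflow tract and valve formation. CXCL14 is an older, highly conserved chemokine of epithelial and other tissues, and its receptor is not settled.

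On GRCh38 with GENCODE 29 gene models, CXCL14 (ENSG00000145824.13) lies at chr5:135570679-135579279 on the minus strand and CXCL12 (ENSG00000107562.17) at chr10:44370165-44386493 on the minus strand. CXCR4 (ENSG00000121966.8) lies at chr2:136114349-136118165 on the minus strand and ACKR3 (ENSG00000144476.6) at chr2:236567787-236582358 on the plus strand. The table gives 1 count per gene, so reads from exons, introns and UTRs are not separated. The 250 bases before the RefSeq start (GRCh38.p14) are shown for the 2 ligands because their RNA differed in opposite directions between the protocols. The CXCL12 window is chr10:44385098-44385347 and the CXCL14 window chr5:135578992-135579241, both on the minus strand and written 5′ to 3′. Both windows lie inside the GENCODE spans given above, which begin farther upstream than these RefSeq starts. They are therefore upstream of the RefSeq start only. Capitals mark matches on either strand to 4 motifs searched: the retinoic acid receptor half-sites AGGTCA and GGGTCA, the hypoxia-response core ACGTG and the LIM-homeodomain core TAATTA.
CXCL12: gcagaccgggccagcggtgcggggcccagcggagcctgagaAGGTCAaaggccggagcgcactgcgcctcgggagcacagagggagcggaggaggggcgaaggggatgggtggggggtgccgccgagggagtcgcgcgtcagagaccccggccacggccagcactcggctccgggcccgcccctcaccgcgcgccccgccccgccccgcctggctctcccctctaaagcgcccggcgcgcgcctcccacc
CXCL14: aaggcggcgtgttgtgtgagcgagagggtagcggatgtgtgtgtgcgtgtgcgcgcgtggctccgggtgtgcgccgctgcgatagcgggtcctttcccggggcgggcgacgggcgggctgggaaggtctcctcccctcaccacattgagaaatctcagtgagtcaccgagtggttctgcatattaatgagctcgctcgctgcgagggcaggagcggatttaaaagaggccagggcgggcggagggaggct
AGGTCA occurred once in the CXCL12 window, on the gene's own strand, 209 bases before the RefSeq start and inside the GENCODE span. The CXCL14 window held none of the 4 motifs. Among 35116 RefSeq windows of this length, 12.1% held AGGTCA, 12.1% held GGGTCA, 18.5% held ACGTG and 4.35% held TAATTA, so a match to the first is common. Of 3 CXCR4 windows, 1 held GGGTCA and the others held none of the motifs. No window for ACKR3 was used.

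Libraries held 2899786 to 7438010 counts, with a median of 5113567. CXCL12 had 135 to 1314 counts a library, CXCL14 8 to 165, CXCR4 20 to 114 and ACKR3 13 to 102, so all 4 were above the floor of 3 counts in every library. Levels are given as CPM, the counts scaled to a TMM-adjusted library total of 1000000, and all 4 genes passed the filter on low counts. CXCL14 is overlapped on the opposite strand by SLC25A48, with 78 counts over all libraries, and by AC034206.1, with 3, against 1508 for CXCL14; whether counting used strand is not given in the sources used here. Among the targets, ZNF503 RNA went against its label: libraries labelled ZNF503 had a mean of 297 CPM with the AM protocol, where AM TRAC had 112, and of 35.7 CPM with the VM protocol, where VM TRAC had 13.2. LHX2 RNA was at most 6.92 CPM in any library, a VM ZNF711 one. Its mean was 1.19 CPM in AM LHX2 and 1.18 CPM in AM TRAC, so no lower level was seen there. In VM LHX2 the LHX2 mean was 1.58 CPM, where VM TRAC had 3.19, and these libraries overlapped. ZNF711 RNA averaged 42.7 CPM in AM ZNF711 libraries (55.8, 41.1 and 31.2) and 54.4 CPM in AM TRAC libraries (55.5, 60.3 and 47.4), and these groups overlapped. With the VM protocol it averaged 30.89 CPM in VM ZNF711 (32.9, 33.9 and 25.9) and 40.04 CPM in VM TRAC (48.0, 37.5 and 34.6). Cardiomyocyte marker genes were present in every library, with a summed level of 12 markers between 11840 and 42374 CPM. The sum differed between groups and replicates. Its mean was 20451 CPM in AM TRAC, 32012 CPM in VM TRAC and 15205 CPM in VM ZNF711. Within VM TRAC it was 42374, 37978 and 15685 CPM in replicates 1, 2 and 3. The part of cardiomyocyte content in the differences of the 4 genes was not tested. The 3 VM libraries of replicate 3 outside VM ZNF711, together with all 3 VM ZNF711 libraries, stood apart on the second principal component (14.6% of the variance), at -31.4 to -3.5 against 23.1 to 33.2 for the other 6 VM libraries.

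CXCL12, the ligand of both receptors, was higher in AM than in VM cultures for every target. In AM TRAC it stood at 145, 205 and 119 CPM in replicates 1, 2 and 3, and in VM TRAC at 34.3, 47.4 and 26.7 CPM. The lowest AM TRAC library was above the highest VM TRAC library, as it was for 14.3% of all genes. The difference was 4.35-fold (log2 fold change 2.12 ± 0.35 SE, n = 3 libraries a group, edgeR quasi-likelihood test, adjusted p = 0.000353). CXCL12 was the 1 call among the 3 tested members there, where 11.3% of all genes were called and 6.18% were called higher in AM.

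With the other targets the fitted AM excess of CXCL12 was 2.31- to 2.67-fold. AM LHX2 had 91.2, 135 and 41.5 CPM and VM LHX2 30.5, 51.9 and 33.2 CPM. These groups overlapped, because AM LHX2 replicate 3 lay below VM LHX2 replicate 2, and the difference was 2.31-fold (log2 1.21 ± 0.35 SE, edgeR adjusted p = 0.0332; 8.56% of genes called, 4.68% as higher). AM ZNF503 had 146, 162 and 89.5 CPM against 54.4, 51.7 and 42.8 in VM ZNF503, a 2.67-fold difference without overlap, a placing that 12.7% of genes shared (log2 1.42 ± 0.34 SE, edgeR adjusted p = 0.0110; 8.86% called, 4.77% as higher). AM ZNF711 had 58.5, 77.7 and 109 CPM against 33.4, 36.1 and 33.6 in VM ZNF711, a 2.37-fold difference without overlap, which 16.5% of genes shared (log2 1.24 ± 0.35 SE, edgeR adjusted p = 0.0228; 13.2% called, 6.81% as higher). Every AM library except AM LHX2 replicate 3 was above all 12 VM libraries, which ranged from 26.7 to 54.4 CPM. The LHX2 call was lost without AM LHX2 replicate 1 or 2 or VM LHX2 replicate 1 or 3 (adjusted p up to 0.252). The ZNF503 call was lost without AM ZNF503 replicate 2 or VM ZNF503 replicate 3 (up to 0.0575). For ZNF711 it was lost without any 1 of its libraries except AM ZNF711 replicate 1 (up to 0.107), while the TRAC call remained without each library in turn (0.000518 to 0.00406). With the replicate number as a block, CXCL12 was again called in all 4 (adjusted p = 0.00012, 0.0174, 0.00437 and 0.00745 for TRAC, LHX2, ZNF503 and ZNF711), where 10.2%, 7.94%, 7.85% and 11.4% of genes were called higher.

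**Figure D1:**
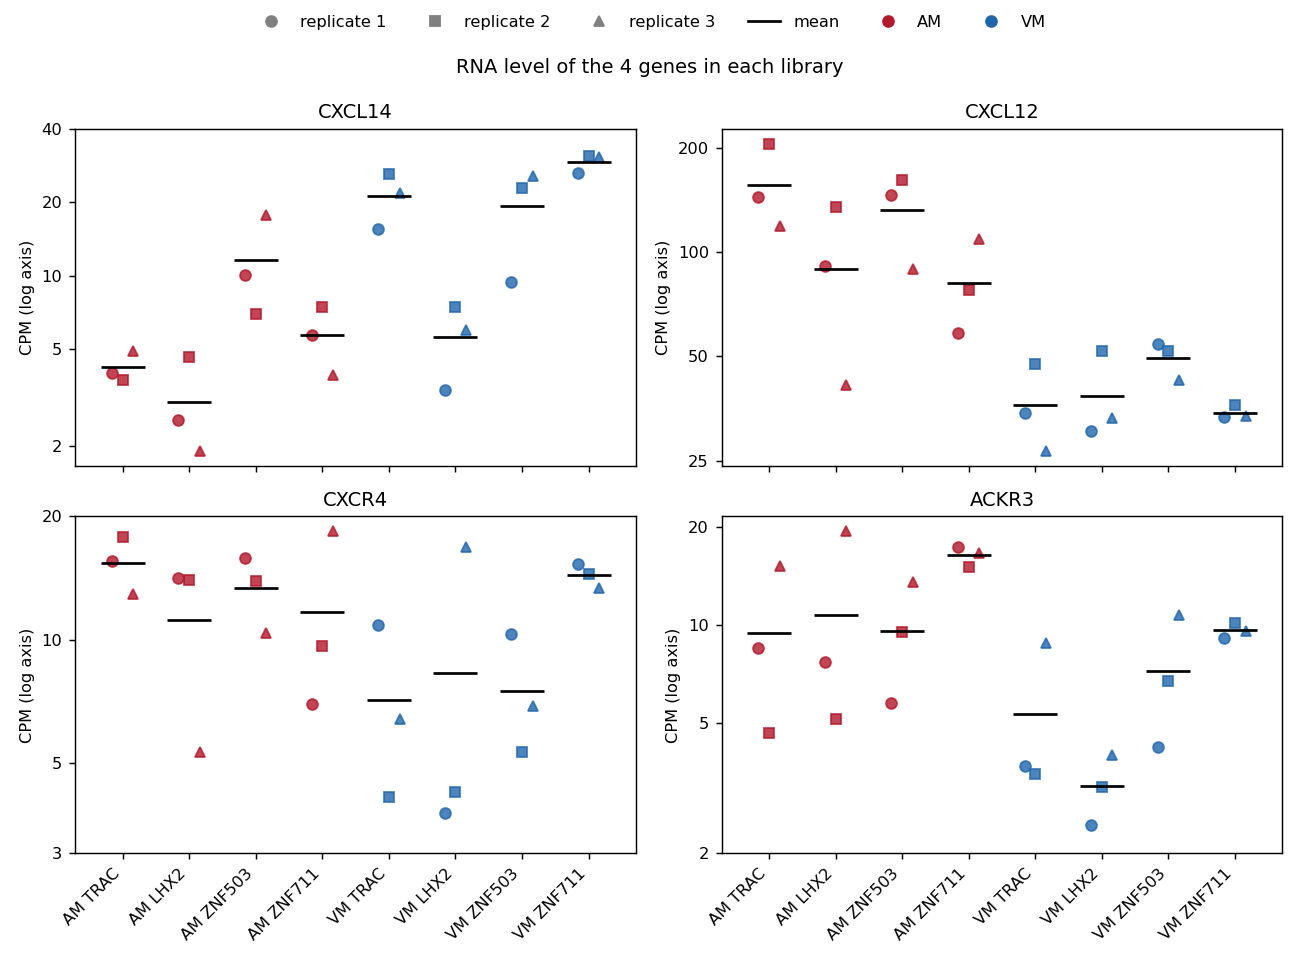
RNA level of the 4 genes in each of the 24 libraries, in CPM on log axes, by group; symbols mark the replicate number and bars the mean of 3 libraries. CXCL12 sits at 26.7 to 54.4 CPM in all VM libraries and at 41.5 to 205 CPM in AM libraries, while CXCL14 is lowest in AM LHX2 and highest in VM ZNF711.

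No change of CXCL12 by a target within a protocol was detected by the edgeR test. Of 17724 genes, 0 were called (0% of genes) in 5 of the 6 target comparisons and 3 (0.0169%) in VM ZNF711 against VM TRAC. In those 5, between 274 (VM ZNF503) and 1372 (AM LHX2) genes had an unadjusted p below 0.05, and DESeq2 called 24 genes in AM LHX2, 1 in AM ZNF503 and 0 in the other 3. With the replicate number as a block, edgeR called 201 genes in AM LHX2, 1 in AM ZNF503, 7 in AM ZNF711, 1 in VM LHX2 and 402 in VM ZNF711. CXCL12 was called in none of the 6 with the block (edgeR adjusted p = 0.187 in AM LHX2 and 0.422 in AM ZNF711). The VM LHX2, VM ZNF503 and VM ZNF711 differences from VM TRAC were 0.10 ± 0.35, 0.46 ± 0.35 and -0.06 ± 0.35 on the log2 scale (± SE). In AM the mean was below that of AM TRAC for all 3 targets. AM ZNF711 lay below AM TRAC without overlap, at 81.8 ± 25.5 against 156 ± 44.1 CPM (SD, n = 3), as did 6.13% of all genes; the log2 difference was -0.94 ± 0.34 SE (edgeR unadjusted p = 0.0113, adjusted p = 1). AM LHX2, at 89.4 ± 47.0 CPM, overlapped AM TRAC, with a log2 difference of -0.81 ± 0.34 SE (unadjusted p = 0.0254, adjusted p = 0.588). Without the filter on low counts the AM LHX2 and AM ZNF711 differences passed the threshold (adjusted p = 0.00487 and 0.00031), as did AM ZNF711 without replicate 3 in any group (-1.37, adjusted p = 0.026). The target effect in AM minus that in VM was -0.91 ± 0.49 for LHX2, -0.70 ± 0.48 for ZNF503 and -0.88 ± 0.49 for ZNF711 (log2 ± SE, edgeR adjusted p of 0.865 to 1; 0%, 0% and 0.00564% of genes called). A difference of the target effect on CXCL12 between the protocols was therefore not detected. For the 2 counts of 0, 660 (LHX2) and 346 (ZNF503) genes had an unadjusted p below 0.05 and DESeq2 called 0.

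CXCL14, the other ligand, ran in the opposite direction by protocol. It was selected on measured values of this series, and the sources used here do not say of which comparison. CXCL14 was the 1 gene called in VM LHX2 against VM TRAC with the replicate block, so that comparison may have selected it. That call is not used as a test here. The CXCL14 values are therefore a description without tests, and the shares of genes beside them are no support for its differences. In VM TRAC it stood at 15.6, 26.2 and 21.9 CPM in replicates 1, 2 and 3. In VM LHX2 it stood at 3.38, 7.44 and 6.0 CPM. All 3 VM LHX2 libraries were below all 3 VM TRAC libraries, as were 2.41% of all tested genes, and the fitted level was 3.79-fold lower (log2 -1.92 ± 0.39 SE). VM ZNF503, at 9.38, 22.9 and 25.8 CPM, overlapped VM TRAC. VM ZNF711 had 26.5, 31.0 and 30.7 CPM, the highest mean of the 8 groups (29.4 ± 2.55, SD, n = 3), and just cleared the VM TRAC libraries, as did 5.41% of genes.

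AM groups had a lower mean of CXCL14 than the VM group of the same target in all 4 cases, and those labelled ZNF503 had the highest mean among AM. AM TRAC had 3.98, 3.75 and 4.92 CPM, 5.03-fold below VM TRAC (log2 -2.33 ± 0.40 SE) without overlap, as were 11.7% of genes. AM LHX2 had 2.57, 4.65 and 1.90 CPM, AM ZNF711 5.73, 7.45 and 3.90 CPM, and both overlapped AM TRAC. The 3 libraries labelled AM ZNF503 had 10.05, 6.96 and 17.8 CPM and were all above AM TRAC, as were 4.54% of tested genes, with a 2.75-fold higher fitted level (log2 1.46 ± 0.40 SE). By group mean, VM ZNF711 was followed by VM TRAC, VM ZNF503, AM ZNF503, AM ZNF711, VM LHX2, AM TRAC and AM LHX2, and every neighbour in that order after the first pair overlapped the next. With LHX2 targeted, the AM and VM groups overlapped and differed by -0.89 ± 0.45 (log2 ± SE), against -2.35 ± 0.39 with ZNF711 targeted, where the groups did not overlap and 16.4% of genes were so placed. The LHX2 effect in AM minus that in VM was 1.44 ± 0.60 and the ZNF503 effect 1.59 ± 0.54 on the log2 scale, whereas the ZNF711 effect was -0.02 ± 0.60. Leaving out AM LHX2 replicate 2 moved the AM LHX2 difference from AM TRAC from -0.48 to -0.94.

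The endoderm marker level had the same order as CXCL14 over the VM group means, but not over the AM group means or within most groups. The summed level of 12 endoderm markers, which include the liver and yolk sac genes AFP, ALB and APOA1, was 183 to 1746 CPM in AM and 1399 to 25924 CPM in VM libraries. Not all markers ran with the sum. In AM TRAC against VM TRAC, 6 were called lower and 1, SOX17, higher, where 5.12% and 6.18% of all genes were. In AM LHX2 against VM LHX2, 3 were called lower and 2 higher, where 8.56% of all genes were called in either direction. In VM TRAC it was 3186, 2853 and 23987 CPM in replicates 1, 2 and 3, and in VM LHX2 1950, 1399 and 8867 CPM; no marker of this list was at 0 in all libraries of a group. By mean the VM groups ran ZNF711 (17561 CPM), TRAC (10009), ZNF503 (7029) and LHX2 (4072), which is their order for CXCL14. Among AM groups ZNF711 had the highest mean sum (1168 CPM) and ZNF503, which had the most CXCL14, the lowest (369 CPM). Within a group the 3 libraries had the same order for both in 2 of 8 groups, AM TRAC and AM ZNF503. VM ZNF503 replicate 3 was the highest of its group in both, whereas in VM TRAC replicate 3 held the most endoderm marker RNA and replicate 2 the most CXCL14. The part of these cells in the CXCL14 differences was not tested. In bulk samples, fewer cells of a type and less RNA per cell cannot be told apart.

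**Figure D2:**
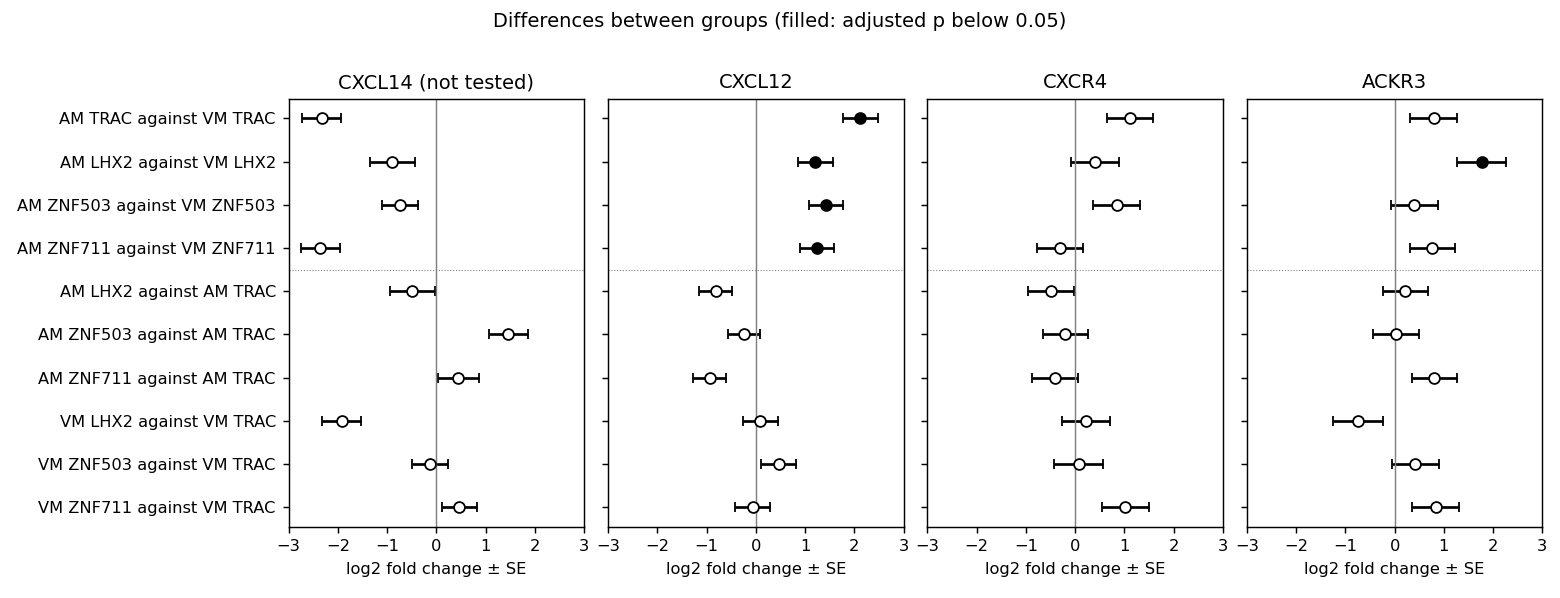
Log2 fold change with its SE for each of the 4 genes in 10 comparisons of 3 against 3 libraries, protocol comparisons above the dotted line and targets below; filled points have an adjusted p below 0.05 and CXCL14 was not tested. CXCL12 is filled in all 4 protocol comparisons (1.21 to 2.12) and ACKR3 in the LHX2 one (1.76).

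The ratio of CXCL12 to CXCL14 reads within a library does not depend on the scaling of libraries. AM TRAC libraries had ratios of 36.4, 54.8 and 24.2, and VM TRAC libraries of 2.20, 1.81 and 1.22. In VM ZNF711 the 2 ligands had nearly equal reads, with ratios of 1.26, 1.16 and 1.10. VM LHX2 stood between, at 9.0, 6.97 and 5.53, above all other VM libraries but 1, VM ZNF503 replicate 1 at 5.80. AM LHX2 had 35.5, 29.1 and 21.8, AM ZNF503 14.5, 23.3 and 5.02, and AM ZNF711 10.2, 10.4 and 27.9. The lowest AM value, AM ZNF503 replicate 3, lay below 4 VM libraries. Per kilobase of exon, CXCL12 RNA was 25.7 and CXCL14 RNA 2.13 CPM in AM TRAC, against 5.94 and 10.7 in VM TRAC. On this scale of level per length, CXCL14 was above CXCL12 in VM TRAC. The exons of CXCL14 span 1975 bases and those of CXCL12 6077, with the exons of all transcript models of a gene joined. The order may differ for the lengths of the transcripts in use, which gene counts do not give.

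**Figure D3:**
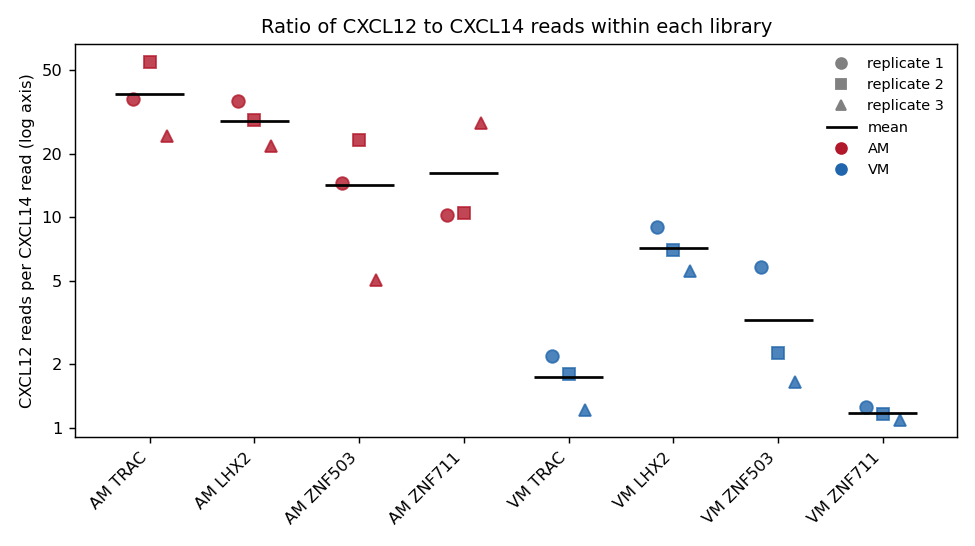
CXCL12 reads per CXCL14 read in each library on a log axis, by group; symbols mark the replicate number and bars the mean of 3 libraries. VM ZNF711 libraries lie at 1.10 to 1.26, VM TRAC at 1.22 to 2.20, VM LHX2 at 5.53 to 9.0 and AM TRAC at 24.2 to 54.8.

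CXCR4, the signalling receptor, was present at a few to about 19 CPM in both protocols, and no comparison passed the test. AM TRAC had 15.5, 17.8 and 12.9 CPM and VM TRAC 10.9, 4.13 and 6.41 CPM. These groups did not overlap, the 14.3% share of genes given above for AM TRAC, and the log2 difference was 1.11 ± 0.47 SE (edgeR unadjusted p = 0.0275, adjusted p = 0.143). Without the filter on low counts the adjusted p was 0.0281. AM ZNF503, at 15.8, 13.9 and 10.4 CPM, was also just above VM ZNF503, at 10.3, 5.31 and 6.88 CPM, as were 12.7% of genes (log2 0.84 ± 0.48 SE, adjusted p = 0.36). With ZNF711 the means ran the other way, 11.7 ± 6.02 CPM in AM and 14.4 ± 0.983 CPM in VM (SD, n = 3). The 3 VM ZNF711 libraries, at 15.3, 14.5 and 13.4 CPM, were above all 3 VM TRAC libraries (log2 1.01 ± 0.48 SE, adjusted p = 0.518); 5.41% of genes were so placed.

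Replicate 3 went against replicates 1 and 2 in both LHX2 groups for CXCR4. VM LHX2 had 3.76, 4.25 and 16.8 CPM, the third value being the highest of all 12 VM libraries, and AM LHX2 had 14.1, 14.0 and 5.32 CPM, of which the third was the lowest of all 12 AM libraries. AM LHX2 against VM LHX2 gave a log2 difference of 0.41 ± 0.48 SE (edgeR adjusted p = 0.712). Without replicate 3 in any group it was 1.81 ± 0.44 SE (adjusted p = 0.0118), and VM LHX2 against VM TRAC turned from 0.22 to -0.90. The target effect in AM minus that in VM was -1.42 ± 0.67 for ZNF711 (log2 ± SE, edgeR unadjusted p = 0.0431, adjusted p = 0.765) and -0.71 ± 0.68 and -0.27 ± 0.67 for LHX2 and ZNF503. In order of mean the 8 groups ran from AM TRAC (15.4 CPM) through VM ZNF711, AM ZNF503, AM ZNF711, AM LHX2, VM LHX2 and VM ZNF503 to VM TRAC (7.14 CPM), each overlapping its neighbour.

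ACKR3, the scavenging receptor, was higher in AM LHX2 than in VM LHX2. AM LHX2 had 7.71, 5.17 and 19.4 CPM and VM LHX2 2.44, 3.19 and 4.00 CPM. The groups did not overlap, as for 12.5% of genes, and the fitted level was 3.40-fold higher in AM (log2 1.76 ± 0.50 SE, edgeR adjusted p = 0.0262). CXCL12 and ACKR3 were thus the 2 of 3 tested members called in that comparison, in which 4.68% of all genes were called higher in AM. The ACKR3 call was lost without AM LHX2 replicate 3, its highest library (0.99, adjusted p = 0.31), without VM LHX2 replicate 1 or 2, and without replicate 3 in any group (1.18, adjusted p = 0.176). The endoderm marker sum was 320, 297 and 847 CPM in AM LHX2 replicates 1, 2 and 3. In VM LHX2, where ACKR3 was lower, that sum was higher, at 1399 to 8867 CPM. The part of endoderm cells in the ACKR3 difference was not tested.

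For the other targets ACKR3 passed no test. AM TRAC, at 8.50, 4.68 and 15.1 CPM, overlapped VM TRAC, at 3.69, 3.51 and 8.79 CPM (log2 0.79 ± 0.47 SE, edgeR adjusted p = 0.334). AM ZNF503, at 5.77, 9.52 and 13.6 CPM, overlapped VM ZNF503, at 4.22, 6.74 and 10.7 CPM (log2 0.40 ± 0.47 SE, adjusted p = 0.733). AM ZNF711 had the highest mean, 16.4 ± 1.17 CPM (SD, n = 3), with all 3 libraries between 15.1 and 17.4 CPM. AM ZNF711 lay above VM ZNF711, at 9.15, 10.2 and 9.61 CPM, without overlap (log2 0.76 ± 0.46 SE, adjusted p = 0.302), as did 16.5% of all genes. All 3 VM ZNF711 libraries were above VM TRAC, as were 5.41% of genes (log2 0.83 ± 0.48 SE, adjusted p = 0.612). The LHX2 effect on ACKR3 in AM minus that in VM was 0.97 ± 0.69 (log2 ± SE, edgeR adjusted p = 1), so the call with LHX2 targeted was not shown to differ from the result with TRAC targeted. In order of mean the groups ran AM ZNF711, AM LHX2, VM ZNF711, AM ZNF503, AM TRAC, VM ZNF503, VM TRAC and VM LHX2 (3.21 CPM), each overlapping the next.

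The replicate number went with the level of these genes within groups. ACKR3 was highest in replicate 3 in 6 of the 8 groups, the exceptions being AM ZNF711 and VM ZNF711. CXCL12 and CXCR4 were both lowest in replicate 3 in AM TRAC, AM LHX2 and AM ZNF503. CXCL14 was lowest in replicate 1 in all 4 VM groups. The endoderm marker sum was highest in replicate 3 in all 8 groups, and its part in these patterns was not tested. The labels do not say what a replicate number stands for.

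Across the 12 AM libraries, CXCL12 and CXCR4 varied together and against ACKR3. For CXCL12 and CXCR4, Pearson's r of the log2 CPM was 0.90 (permutation p = 0.00011) and Spearman's rho 0.73 (permutation p = 0.00889). For CXCL12 and ACKR3, r was -0.76 (permutation p = 0.00346) and rho -0.76 (permutation p = 0.00527). With Benjamini-Hochberg adjustment over the 6 relations tested, 3 pairs of genes in each protocol, these Pearson p-values were 0.00066 and 0.0104 and both Spearman values 0.0267. Without the 2 libraries farthest from the CXCL12 median, AM LHX2 replicate 3 and AM ZNF711 replicate 1, r was 0.69 and -0.67 and neither passed after adjustment (permutation, adjusted p = 0.109 for each), so that both relations rested on those libraries for their calls. In the 12 VM libraries r was -0.32 and -0.22 (permutation, adjusted p = 0.361 and 0.489). CXCR4 and ACKR3 had r of -0.65 in AM (permutation, adjusted p = 0.0392, or 0.0588 when the relations with CXCL14 are counted among 12) and rho of -0.62 (adjusted p = 0.0767). Without the same 2 libraries its r was -0.45 (permutation, adjusted p = 0.396), and over VM libraries it was 0.46 (adjusted p = 0.198). With the mean of each replicate number subtracted and libraries permuted within the number, r over AM was 0.91 for CXCL12 and CXCR4, -0.72 for CXCL12 and ACKR3 and -0.66 for CXCR4 and ACKR3 (permutation, adjusted p = 0.00282, 0.0179 and 0.0179). For CXCL14, as a description, r was 0.80 with ACKR3 over the VM libraries (0.83 within the replicate number) and between -0.02 and 0.27 in its 5 other relations. The 12 libraries share groups and replicate numbers and are not independent draws, so these permutation p-values describe the pattern and are likely too small.

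**Figure D4:**
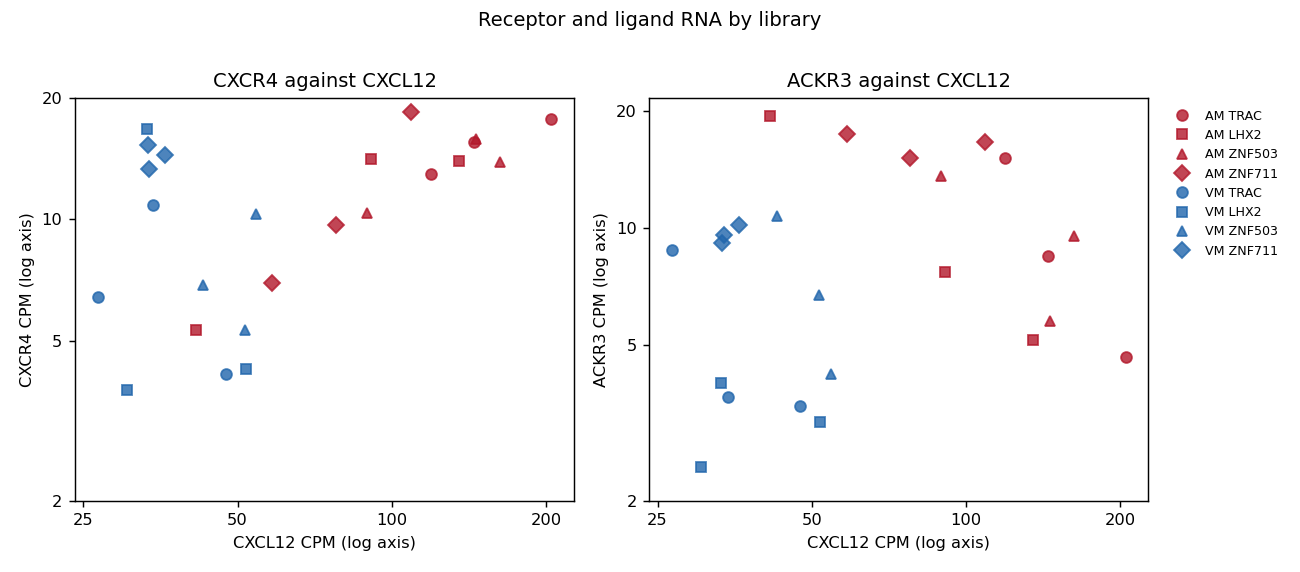
CXCR4 (left) and ACKR3 (right) against CXCL12 in CPM on log axes, 1 point per library, AM in red and VM in blue, with symbols for the target. Among AM libraries CXCR4 is higher and ACKR3 lower where CXCL12 is higher (r of 0.90 and -0.76), and AM LHX2 replicate 3, with 41.5 CPM of CXCL12, is the point at the left end of the AM libraries.

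Most other chemokines and their receptors were below the filter on low counts in these cultures. Of 108 pathway genes in 6 lists, 51 were tested: 3 of 15 other CXC ligands, 2 of 27 CC, CX3C and XC ligands and 2 of 20 other chemokine receptors, but 12 of 13 other ligands and partners of CXCR4 and ACKR3, 20 of 21 genes of CXCR4 signalling and desensitisation and all 12 known upstream regulators. In AM TRAC against VM TRAC, 8 of the 51 were called higher in AM and 3 lower, where 6.18% and 5.12% of all genes were. Of the ligands, CX3CL1, the membrane-bound chemokine fractalkine, was lower in AM TRAC (0.904, 3.59 and 6.92 CPM against 11.9, 16.5 and 19.7; log2 -2.07 ± 0.51 SE, edgeR adjusted p = 0.00772). CXCL17 had no read in any AM TRAC library and 0.205, 0 and 7.60 CPM in VM TRAC (edgeR adjusted p = 0.0663, or 0.0106 with the replicate block, where 9.2% of genes were called lower). None of the other chemokine receptors was called.

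Among partners, RAMP2, which pairs with the adrenomedullin receptor, stood at 28.2, 40.9 and 29.3 CPM in AM TRAC and at 9.44, 10.1 and 12.8 CPM in VM TRAC (log2 1.60 ± 0.29 SE, edgeR adjusted p = 0.00057). HMGB1, a nuclear protein that can bind CXCL12 outside the cell, was higher by 0.50 ± 0.14 (log2 ± SE, adjusted p = 0.0194). The 2 called genes of this list were of 12 tested, and the list's median log2 difference was 0.14 against -0.03 over all genes.

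In the signalling list, 4 of 20 genes were higher in AM TRAC and none lower, with a list median of -0.01. GRK5, a kinase that phosphorylates activated G protein-coupled receptors, was higher by 1.32 ± 0.20 (log2 ± SE, edgeR adjusted p = 5.47e-05). ARRB1, which encodes the arrestin that binds such receptors, was higher by 0.77 ± 0.16 (adjusted p = 0.00158). RGS4 and RGS16, which speed the shut-off of G protein signals, were higher by 2.24 ± 0.38 and 1.61 ± 0.44 (adjusted p = 0.000207 and 0.0188). RGS4 had 31.1, 33.2 and 36.8 CPM in AM TRAC against 2.87, 4.54 and 13.4 in VM TRAC.

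Of the 12 regulators, 2 were higher and 2 lower in AM TRAC, with a list median of 0.26. EPAS1, the hypoxia-inducible factor HIF-2 alpha, was higher by 2.03 ± 0.31 (log2 ± SE, edgeR adjusted p = 0.000106), at 159, 160 and 289 CPM against 37.1, 35.9 and 75.2. SOX17, an endothelial and endoderm transcription factor, was higher by 1.51 ± 0.48 (adjusted p = 0.041). VEGFA, the vascular growth factor, was lower by 1.12 on the log2 scale (-1.12 ± 0.14 SE, adjusted p = 5.04e-06), at 296, 235 and 218 CPM against 532, 491 and 602. FGF8, a growth factor of the outflow tract region, was lower (-1.62 ± 0.52 SE, adjusted p = 0.0425). HIF1A and TBX1 were not called.

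No gene of the 6 lists was called in any of the 6 target comparisons, where at most 0.0169% of all genes were (VM ZNF711 against VM TRAC). With so few calls among all genes, this does not set the lists apart from other genes. With the replicate number as a block, CD164 was called in AM LHX2 against AM TRAC (adjusted p = 0.0424), where 1.13% of all genes were, and SDC4 (adjusted p = 0.0101) and EPAS1 (adjusted p = 0.0405) in VM ZNF711 against VM TRAC, where 2.27% were. CD164 is a sialomucin that associates with CXCR4, and SDC4 a heparan sulfate proteoglycan that binds CXCL12.

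**Figure D5:**
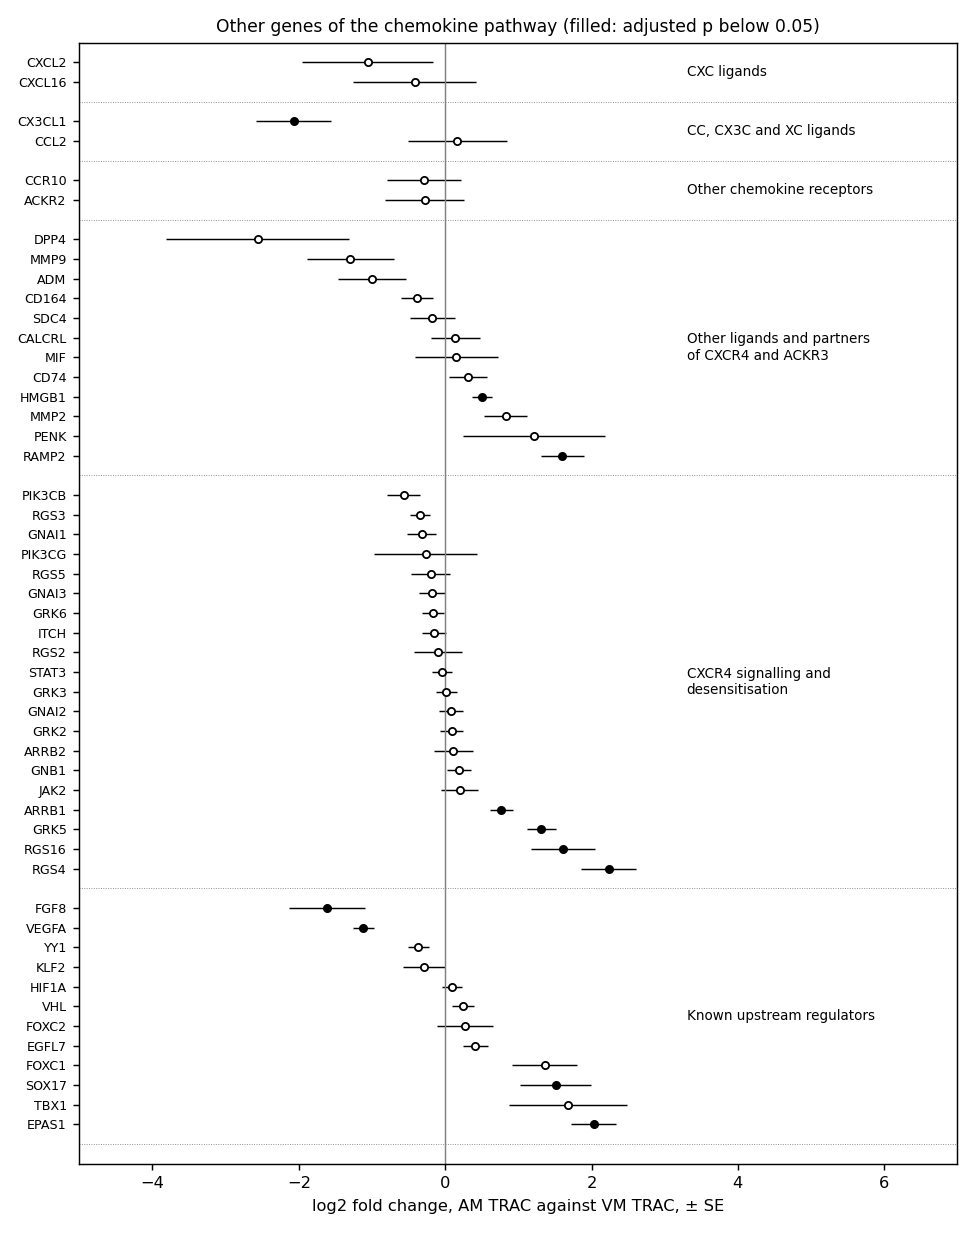
Log2 fold change with SE, AM TRAC against VM TRAC (3 libraries each), for 50 of the 51 tested genes of the 6 pathway lists; CXCL17, at 0 reads in all AM TRAC libraries, is not drawn. Filled points have an adjusted p below 0.05: 8 lie to the right, from HMGB1 (0.50) to RGS4 (2.24), and 3 to the left, CX3CL1, FGF8 and VEGFA.

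Part of the stromal and endothelial markers were also higher in AM TRAC, beside CXCL12. The summed level of 10 fibroblast markers was 4298 to 7474 CPM in AM and 1788 to 5133 CPM in VM libraries, and that of 10 endothelial markers 438 to 834 against 349 to 499 CPM. In AM TRAC against VM TRAC, 3 of 10 fibroblast and 4 of 10 endothelial markers were called higher and none lower, where 6.18% of all genes were called higher. In AM ZNF711 against VM ZNF711, 1 of 10 fibroblast markers was called higher, with a list median log2 difference of 0.0035, and 2 of 10 endothelial markers, where 6.81% of all genes were. Within a group the 3 libraries had the same order for CXCL12 and the fibroblast sum in 3 of 8 groups, AM LHX2, AM ZNF503 and AM ZNF711. Within VM TRAC, replicate 3 had the highest fibroblast sum of all VM libraries (5133 CPM) and the lowest CXCL12 level of all 24 (26.7 CPM). Blood and macrophage markers summed to 14.5 to 49.4 CPM, and HBE1 was at 0 in all libraries. The part of these cell types in the CXCL12, CXCR4 and ACKR3 differences was not tested.

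The genes most like each member were ranked by Pearson's correlation of log2 CPM over the 24 libraries among 11293 genes with a mean log2 CPM of at least 3. These values have no test, and the libraries share protocol, group and replicate number. CXCL12 was closest to IGFBP5 (0.98), an insulin-like growth factor binding protein, then to NRP2 (0.95), a semaphorin and VEGF co-receptor, TLN2 (0.93), DCHS1 (0.93) and SFRP1 (0.93), a secreted Wnt inhibitor. IGFBP5 and NRP2 remained among the top 5 for CXCL12 when the protocol means were subtracted (0.95 and 0.84). Among the closest to ACKR3 were ERRFI1, ITGB6, MYO5B and TFAP2A, all at 0.88, of which ITGB6, an epithelial integrin subunit, remained with the protocol means subtracted (0.89). CXCR4 was less close to any gene, with SULF1 (0.80), a heparan sulfate editing enzyme, SCUBE1 (0.77), ABCC1 (0.77) and FOXC1 (0.75) among the nearest, of which SULF1 and ABCC1 remained. CXCL14 was nearest PNCK (0.83), SNHG7 (0.78), RPL27 (0.78), YARS1 (0.78) and SCARB1 (0.78), of which PNCK alone remained (0.68). With genes down to a mean log2 CPM of 0 included, FETUB (0.80), APOA1-AS (0.79) and SERPINA7 (0.79) joined PNCK and SNHG7 as its closest 5; FETUB and SERPINA7 encode proteins secreted by the liver. By Spearman's rho, 1 of the 5 remained for CXCL14, 3 for CXCL12, 1 for CXCR4 and 4 for ACKR3.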

How the data were processed

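Bulk RNA-seq was deposited as 1 table of raw counts per Ensembl gene for 24 libraries; per the submitters' processing notes the authors used STAR and GRCh38, and versions are not given in the sources used here. The labels name both polyA RNA and ribosomal RNA depletion for the same libraries. Gene names came from a separate list of Ensembl identifiers (62639 of 62757 genes had a name). Gene spans, overlaps and exon lengths came from GENCODE 29 (58318 of 62757 genes matched, without the version number). The versioned identifiers are those of the deposited counts, whose annotation held genes that GENCODE 29 lacks. Exon lengths may therefore differ from those of the counted models. Counts were tested with edgeR 4.0.16 (R 4.3.3): filterByExpr left 17724 genes, TMM factors were 0.905 to 1.08, and 1 robust quasi-likelihood fit with a mean per group over all libraries left 16 residual degrees of freedom. The biological coefficient of variation was 25.0%. In each of the 13 comparisons, p-values were corrected for the 17724 genes (Benjamini-Hochberg) and genes were called below 0.05. The steps were tested on simulated data. Correlations used 100000 permutations, two-sided. The floor of 3 counts covers counting error only.

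The replicate number was checked as a pairing: in 30 of 30 same-numbered pairs of libraries over the 10 comparisons of 2 groups, the deviations from the group means correlated (0.125 to 0.786), so the numbers pair libraries, a pairing that comes from the data and not from the labels. The fit with the number as a block is an alternative; with it ACKR3 was again called in the LHX2 protocol comparison (adjusted p = 0.0024).

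Named genes were the 4 members, the targets, the 5 genes most like each member (some are not reported here), and from each pathway list at most 4 called genes with the largest fold change; CXCL17, CD164, SDC4, HIF1A, TBX1, FETUB, APOA1-AS and SERPINA7 were named after their values were seen. The members and lists were chosen with earlier results of these data known. Alternatives were other scaling (RLE), DESeq2 1.42.0, other filters, a fit on only the groups compared, blocks, and leaving out libraries. Leaving out replicate 3 in all groups, the protocol-centred likeness and the correlation checks were chosen after seeing the data.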

Additional observations from a re-analysis of the deposited data

How the results depend on the processing

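CXCL12, CXCR4 and ACKR3 gave 270 values in the 10 comparisons of groups under settings other than leaving out single libraries; 260 kept their direction and their side of the threshold, 3 lost a call, 5 gained one and 2 turned. For their AM minus VM target effects, 79 of 81 did and 2 turned. CXCL14, which has no test, kept its direction in 90 of 90 values and in 26 of 27 target effects; the ZNF711 effect turned from -0.023 to 0.28 without replicate 3 in any group. CXCL12 in AM LHX2 against VM LHX2 lost its call with a filter at 1 CPM in 3 libraries (log2 1.20, adjusted p = 0.0519) and in a fit of only the groups compared (1.21, adjusted p = 0.147). Without a filter, CXCL12 gained a call in AM LHX2 against AM TRAC (-0.85) and AM ZNF711 against AM TRAC (-0.96), and CXCR4 in AM TRAC against VM TRAC (1.13). Without replicate 3 in any group, CXCL12 in AM ZNF711 against AM TRAC (-1.37) and CXCR4 in AM LHX2 against VM LHX2 (1.81) gained a call and ACKR3 in AM LHX2 against VM LHX2 (1.18) lost it, while CXCR4 in VM LHX2 against VM TRAC (-0.90), the CXCR4 LHX2 effect in AM minus VM (0.65) and ACKR3 in AM LHX2 against AM TRAC (-0.039) turned. The replicate block changed no call of the 3 tested genes; a block within each protocol turned the ACKR3 ZNF711 effect in AM minus VM (0.025, from -0.03). The cause was not tested.

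Leaving out 1 library at a time gave these log2 ranges where a call or direction changed, or where CXCL14 moved by more than the spread between replicates. CXCL12 ranged from 0.77 to 1.56 in AM LHX2 against VM LHX2, 1.25 to 1.64 in AM ZNF503 against VM ZNF503 and 0.99 to 1.44 in AM ZNF711 against VM ZNF711. Against TRAC it ranged from -0.41 to 0.0072 in AM ZNF503, -0.18 to 0.33 in VM LHX2 and -0.26 to 0.16 in VM ZNF711. CXCR4 ranged from -0.83 to 0.63 in VM LHX2 and -0.23 to 0.49 in VM ZNF503 against VM TRAC, and its effects in AM minus VM from -1.13 to 0.33 (LHX2) and -0.69 to 0.025 (ZNF503). ACKR3 ranged from 0.99 to 2.10 in AM LHX2 against VM LHX2, and against AM TRAC from -0.56 to 0.74 in AM LHX2 and -0.30 to 0.55 in AM ZNF503. Its effects in AM minus VM ranged from -0.97 to 0.13 (ZNF503) and -0.61 to 0.50 (ZNF711). CXCL14 ranged from -0.94 to -0.20 in AM LHX2 against AM TRAC and -0.38 to 0.19 in VM ZNF503 against VM TRAC, and its effects in AM minus VM from 0.98 to 1.72 (LHX2) and -0.26 to 0.18 (ZNF711). CXCR4 in AM LHX2 against VM LHX2, without a call throughout, ranged from 0.075 to 1.45. An arm left with 2 libraries shares the spread estimated from all groups.

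Counts of called genes moved more. In AM TRAC against VM TRAC, 2003 genes were called, 3430 with the replicate block, 4204 with a block within each protocol and 995 in a fit of only the groups compared. In VM ZNF711 against VM TRAC, 3 genes were called, 402 with the block, 495 without a filter, 59 with DESeq2 and 897 without replicate 3 in any group. For AM LHX2 against AM TRAC the counts were 0, 201 with the block, 97 without a filter and 24 with DESeq2. CXCL14 had 8 counts in its lowest library and ACKR3 13, which limits the precision of both.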
